A study of Mus musculus and Homo sapiens with 22 samples.

Results

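The protein-coding genes whose promoters were occupied by PROX1 in mouse liver were set against those occupied in mouse embryonic fibroblasts (MEFs). Of 21853 protein-coding genes, 13052 had a peak summit within 1000 bp of a transcription start site (TSS) in either peak list or in both. They fell into 954 genes bound only in liver, 7228 bound only in MEFs and 4870 bound in both. The remaining 8801 had no promoter summit in either. The genes were chosen by the deposited summit positions themselves, so class membership is a description of those positions and was not tested. "Bound" here stands for a promoter summit in the list and nothing further.

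The assay was CUT&RUN. A nuclease tethered through an antibody cuts the chromatin where the protein resides, and the fragments it frees are sequenced. The liver group held nuclei of whole livers from 5 untreated C57BL/6J wildtype samples of 2 to 3 months. The labels name the cell type hepatocyte, but no purification of hepatocytes is described. They were probed with an antibody to PROX1 itself, with 5 IgG samples beside them. The MEF group held primary C57BL/6N fibroblasts from E13.5 embryos, transduced with lentiviruses for rtTA and a tetO-driven FLAG-tagged Prox1 and kept in 2 µg/ml doxycycline for 2 days. It was probed with a FLAG antibody in 3 samples and with IgG in 3, and the IgG samples carried the same overexpression. A further list, from the human hepatocellular carcinoma line Hep3B under PROX1 overexpression with doxycycline (3 FLAG samples), took no part in forming the classes. Strain, age, cell type, antibody, and endogenous against overexpressed factor all change between liver and MEFs. By the authors' methods, so do the number of nuclei and the amount of antibody, both higher for liver, and the preparation of nuclei. These differences cannot be told apart. Each list pools the replicates of its group, so depth per sample is unknown and no value has a spread between animals or cultures. Intervals below are 95% Wilson intervals over genes and cover counting error alone.

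PROX1 is a homeodomain transcription factor with well-known roles in hepatocytes, lymphatic endothelium and several neural lineages. In hepatocytes it is known to interact with nuclear receptors such as HNF4A and NR5A2 and to act with repressor complexes. Fibroblasts are not among the cells known for it, and in the MEFs of this study it was introduced.

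The liver list placed a summit at the promoters of 5824 genes (26.7%) and the MEF list at those of 12098 genes (55.4%). Genes bound only in liver made up 4.37% of all genes, those bound only in MEFs 33.1%, those bound in both 22.3% and those bound in neither 40.3%. The shared class was 83.6% of the liver genes (interval 82.6 to 84.5) and 40.3% of the MEF genes (39.4 to 41.1). These shares rest on the lists at their full length, since with only the top 15000 peaks of each list 495 genes were bound in both and 648 only in liver. The lists start at different heights. The lowest summit −log10 q of the peak caller was 4.03 in liver and 1.16 in MEFs. The smallest peak area was 500 in liver and 200 in MEFs, and with a floor of 500 in both the classes held 1507, 5557 and 4317 genes. At the limit of 1000 bp, the last genes counted in liver were Camk1d and Zmym2 (1000 bp from a TSS) and Sntg2 (999 bp), and the first left out were Abhd17c and Crlf3 (1001 bp) and BC035947 (1002 bp). In MEFs Ctdspl, Stxbp5 (996 bp) and Zfyve26 (994 bp) were the last inside, and Mamdc2 (1001 bp), Hand2 and Setd7 (1004 bp) the first outside.

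RNA was not measured in these samples, so for marker genes only the presence of a promoter summit can be given. With a MEF summit at the promoters of 55.4% of all genes, such summits do not establish the identity of the cells. All 6 hepatocyte markers, Alb, Ttr, Apoa1, Serpina1a, Cyp2e1 and Cps1, were bound only in liver. Of the 6 fibroblast markers, Col1a1, Col1a2, Prrx1, Thy1 and Vim were bound only in MEFs and Pdgfra in both. The promoter of Prox1 itself had a liver summit 6 bp before its TSS, at the 64.7th percentile of the liver list, and the nearest MEF summit lay 196186 bp away.

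The genes with the strongest promoter summits gave each class a distinct face. Strength was ranked by the summit −log10 p of the authors' peak caller within each list, and is given as a percentile of all peaks of that list. Among genes bound only in liver, the highest was Nr0b2 (−log10 p of 34.7, percentile 99.99), which encodes SHP, a nuclear receptor that represses bile acid synthesis. Fgb, the fibrinogen beta chain, followed at 29.5, with its summit 997 bp before the TSS and so just inside the limit. Ttr, the plasma carrier of thyroid hormone and retinol, came next at 28.8. Mup11 and Mup22, of the major urinary proteins, reached 27.1 and 25.9. D630039A03Rik (26.5), the growth factor gene Fgf1 (26.3) and the steroid hydroxylase gene Cyp17a1 (26.1) completed the first 8. Mup genes are near-identical copies and reads that map to several of them may be filtered out or misplaced, so values for single Mup genes are uncertain.

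Among genes bound only in MEFs, Hspa2, a chaperone of the HSP70 family, had the highest summit at −log10 p of 12.1. Izumo4 and Mob3a shared 1 peak between them at 11.8. Osbpl2, a lipid transfer protein (11.8), Ephb3, an ephrin receptor (11.6), Otud4, a deubiquitinase (11.6), Aktip (11.5) and Cnnm2 (11.4) came next. Values of −log10 p are not on a common scale between lists.

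Among genes bound in both, Hjurp, the chaperone that loads the centromeric histone CENP-A, was at the 99.99th percentile in liver and the 100th in MEFs. Its summits lay 28 and 25 bp before the TSS. Acsl1, which activates long-chain fatty acids, was at 98.9 and 98.5. The other 6 leading genes were Shld2, Camsap1, Slc11a2, Tmbim6, Cish and Sptlc2, with a lower percentile of 96.9 to 98.0 in whichever list ranked them lower. They include an iron transporter (Slc11a2), an inhibitor of cytokine signalling (Cish) and a subunit of the enzyme that starts sphingolipid synthesis (Sptlc2). Percentiles of shared genes are those of the strongest promoter summit in each list, which can lie at different starts. Those of Acsl1, Shld2 and Slc11a2 lay 19549, 36285 and 19644 bp apart. The nearest liver and MEF promoter summits of these genes lay 22, 0 and 260 bp apart, and at least 1 of each pair was weaker.

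The DNA under these summits is shown to let the promoters of the classes be compared by eye. The 101 bases centred on the summit are given 5′ to 3′ in the direction of the gene (GRCm38), for the 4 highest-ranked genes of each class with no annotated exon in that window, among the genes whose sequence is printed here. Capitals mark matches to any of 15 short motifs described further on. The sites bound only in liver were at Nr0b2 (chr4:133552990-133553090, plus strand), Fgb (chr3:83050810-83050910, minus strand), Cyp17a1 (chr19:46673305-46673405, minus strand) and Gjb1 (chrX:101376486-101376586, plus strand).

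Nr0b2: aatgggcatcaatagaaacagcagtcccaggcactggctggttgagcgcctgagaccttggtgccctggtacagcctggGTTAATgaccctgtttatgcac
Fgb: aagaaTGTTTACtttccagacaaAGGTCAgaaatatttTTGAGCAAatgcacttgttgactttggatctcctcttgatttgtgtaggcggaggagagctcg
Cyp17a1: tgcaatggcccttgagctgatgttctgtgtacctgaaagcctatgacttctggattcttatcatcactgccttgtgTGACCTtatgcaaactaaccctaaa
Gjb1: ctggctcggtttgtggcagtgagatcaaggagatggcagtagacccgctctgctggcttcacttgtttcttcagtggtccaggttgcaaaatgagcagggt

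The sites bound in both were at Sptlc2 (chr12:87388405-87388505, minus strand), Fdxr (chr11:115277069-115277169, minus strand), Acaa1a (chr9:119341191-119341291, plus strand) and Myh9 (chr15:77842295-77842395, minus strand), where the liver and MEF summits lay within 50 bp of each other and the window is centred on the liver summit.

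Sptlc2: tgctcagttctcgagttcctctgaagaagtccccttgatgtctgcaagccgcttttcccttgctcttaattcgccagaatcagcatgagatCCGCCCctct
Fdxr: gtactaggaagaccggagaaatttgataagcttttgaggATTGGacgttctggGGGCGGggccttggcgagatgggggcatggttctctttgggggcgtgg
Acaa1a: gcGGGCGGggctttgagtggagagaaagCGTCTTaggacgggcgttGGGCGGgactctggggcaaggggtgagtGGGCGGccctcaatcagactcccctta
Myh9: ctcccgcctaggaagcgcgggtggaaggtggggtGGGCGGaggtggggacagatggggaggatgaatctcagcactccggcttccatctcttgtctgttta

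The sites bound only in MEFs were at Osbpl2 (chr2:180119061-180119161, plus strand), Ephb3 (chr16:21204538-21204638, plus strand), Cnnm2 (chr19:46761404-46761504, plus strand) and Man1c1 (chr4:134704404-134704504, minus strand).

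Osbpl2: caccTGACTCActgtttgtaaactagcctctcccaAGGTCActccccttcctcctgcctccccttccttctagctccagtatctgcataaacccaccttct
Ephb3: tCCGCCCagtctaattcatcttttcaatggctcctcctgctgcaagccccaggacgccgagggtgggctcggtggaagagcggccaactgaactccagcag
Cnnm2: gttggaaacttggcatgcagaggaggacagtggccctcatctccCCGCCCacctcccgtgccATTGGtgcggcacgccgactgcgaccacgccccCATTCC
Man1c1: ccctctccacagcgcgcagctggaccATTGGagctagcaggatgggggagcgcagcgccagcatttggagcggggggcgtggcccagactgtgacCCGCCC

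In the liver sites, the window of Fgb, centred 997 bp before its TSS, held a nuclear receptor half-site AGGTCA, a FOXA match TGTTTAC and a C/EBP match. That of Cyp17a1 held AGGTCA on the opposite strand, that of Nr0b2 an HNF1 half-site GTTAAT, and that of Gjb1 none of the 15. All 4 sites bound in both held the GC box GGGCGG on either strand, and Acaa1a held it 3 times beside a PROX1 half-site AAGACG. Of the sites bound only in MEFs, Osbpl2 held an AP-1 match and AGGTCA, and Ephb3, Cnnm2 and Man1c1 each held the GC box. Cnnm2 and Man1c1 also held the NF-Y letters CCAAT on the opposite strand.

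The functions of the classes were compared with 59 lists of genes, written from general knowledge but with earlier results of these data known. The shares below are therefore a description and no independent support. Counts are to be read against the shares over all genes, which were 4.37% only in liver, 33.1% only in MEFs, 22.3% in both and 40.3% in neither. Lists of hepatocyte functions held 432 genes. Of these, 208 were bound only in liver (48.1%, interval 43.5 to 52.9, against 4.37% of all genes), 126 in both (29.2% against 22.3%), 25 only in MEFs (5.79% against 33.1%) and 73 in neither. They accounted for 21.8% of all genes bound only in liver. Lists of general cell functions, such as translation, splicing and vesicle traffic, held 1286 genes. Here 20 were bound only in liver (1.56%), 472 in both (36.7%) and 698 only in MEFs (54.3%).

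**Figure D1:**
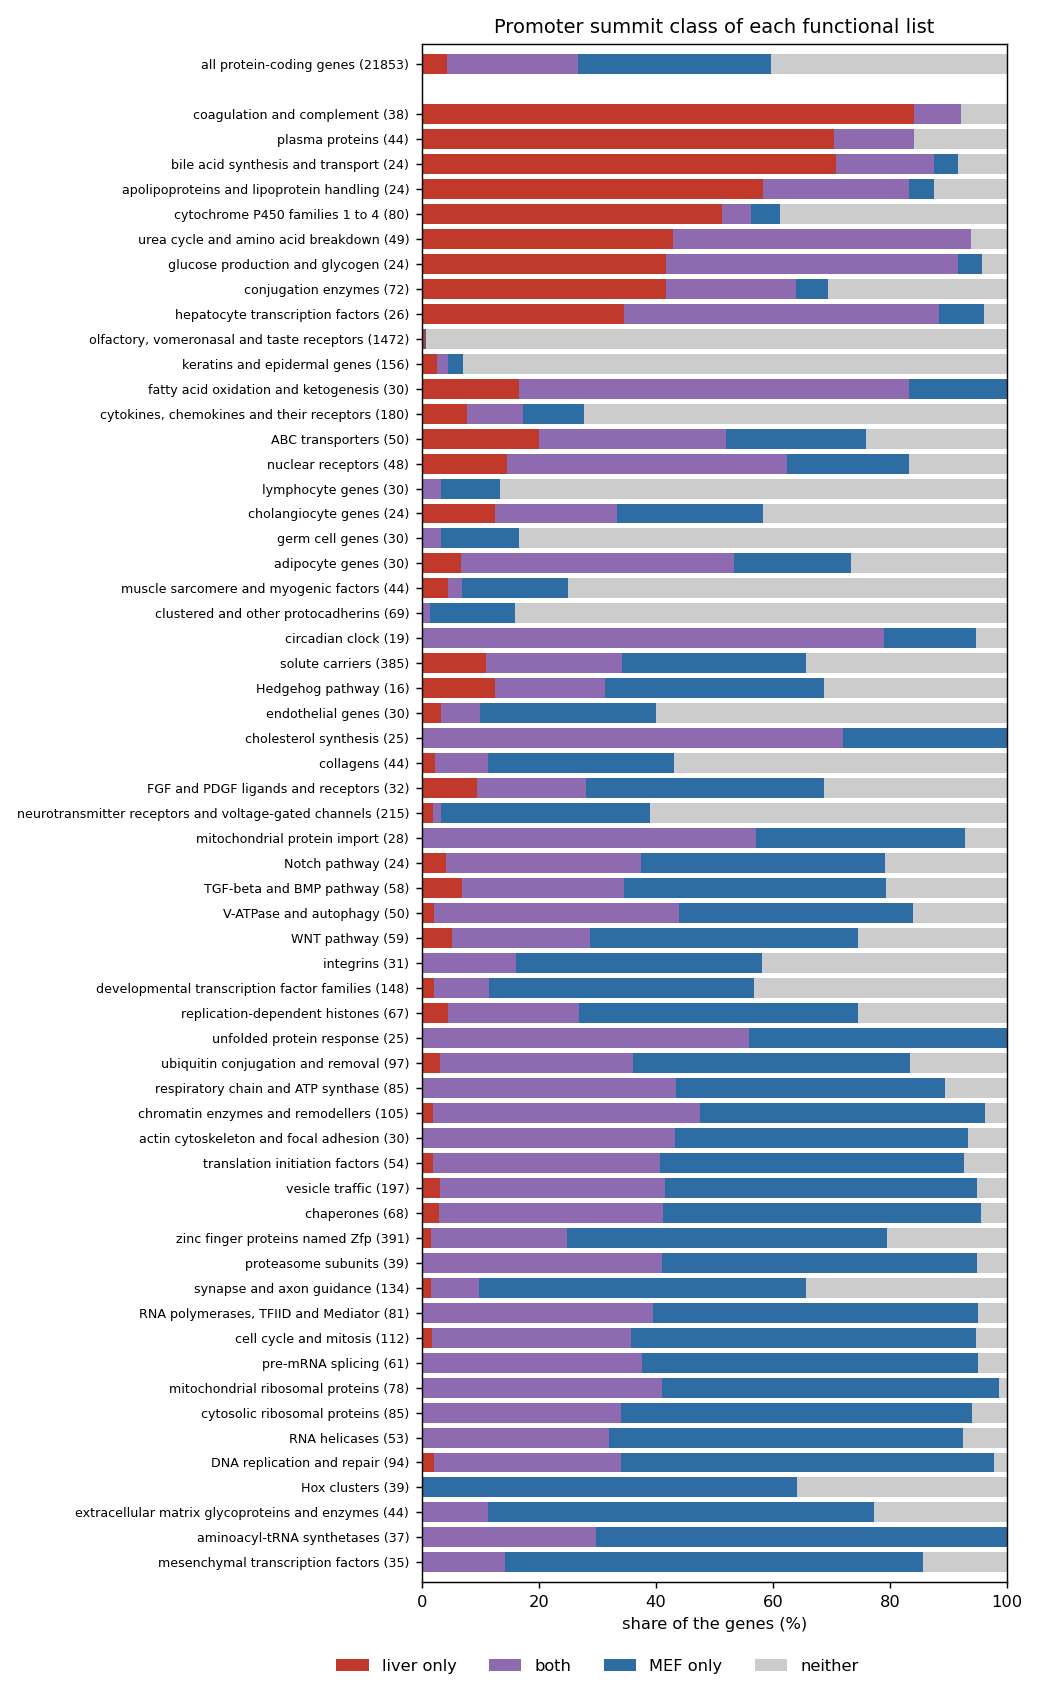
Each bar splits the members of 1 functional list (number of genes in brackets) into genes bound only in liver, in both, only in MEFs and in neither, as a share of the list in percent. Lists are ordered by the share bound only in liver minus the share bound only in MEFs, and the top bar gives all 21853 genes. Coagulation and complement genes stand at one end with 84.2% bound only in liver, and mesenchymal transcription factors at the other with 0%.

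The proteins that hepatocytes release into blood were the most one-sided. Of 38 coagulation and complement genes, 32 were bound only in liver, 3 in both and none only in MEFs. Fga, the fibrinogen alpha chain, had its summit 173 bp before the TSS at the 94.6th percentile, F11 124 bp before at 94.9 and the complement gene C6 247 bp before at 93.6. The 3 shared genes were Pros1, C1s1 and C8g. Of 44 plasma proteins in a list of their own, 31 were bound only in liver and 6 in both, and again none only in MEFs. Ttr, Mug1 and the acute phase gene Saa1 led them, with percentiles of 98.4 and above. Alb, the main plasma protein, was lower, at 67.3. Apoh, Cp (ceruloplasmin), Itih1 and Rbp4 were among the shared ones.

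Lipoprotein and bile acid genes were mostly bound only in liver. Of 24 apolipoproteins and lipoprotein handling genes, 14 were bound only in liver, among them Apoc3 (99.5th percentile) and the hepatic lipase gene Lipc (97.8). Apob and Mttp, the structural protein and the transfer protein of lipoprotein assembly, were bound in both, as were the receptors Scarb1 and Lrp1. The MEF summit of Apob lay 943 bp from a TSS and the liver summit 34 bp. Of 24 genes of bile acid synthesis and transport, 17 were bound only in liver. They included Cyp7a1 (90.6) and Cyp8b1 (68.2), which set the rate and the type of bile acid made, the uptake carrier Slc10a1 (89.4), the export pump Abcb11 (68.4) and the bile acid sensor Nr1h4 (96.5). Amacr, Atp8b1, Hsd3b7 and Abcb4 were bound in both and Cyp7b1 only in MEFs, by a summit at the 0.1th percentile.

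Detoxification enzymes were bound mostly in liver or in neither. Of 80 cytochrome P450 genes of families 1 to 4, which oxidise drugs, steroids and fatty acids, 41 were bound only in liver, 4 in both, 4 only in MEFs and 31 in neither. Cyp3a13 (99.4), Cyp2a12 (98.8) and Cyp2d40 (97.6) ranked highest. The 4 bound only in MEFs were Cyp4f16, Cyp4f13, Cyp1b1 and Cyp2s1. Of 72 conjugation enzymes 30 were bound only in liver, 16 in both and 4 only in MEFs. Gstm1, Gstz1, Gstt2 and Gstp1, glutathione transferases, led the shared ones, while Gstp3 (99.6), Ugt1a5 (96.6) and Gstm2 (94.8) led those of liver. Families were also counted by name after the values had been seen, among name stems with at least 4 genes bound only in liver. That filter favours the liver class, so these counts are no support for it. Some stems that passed were mixed. Hsd genes numbered 9 only in liver, 2 only in MEFs and 6 in both, and Slc genes 37, 118 and 89. The 4 families below were picked for having no gene in the MEF or shared class. Of 22 Ugt genes 14 were bound only in liver and 8 in neither, of 19 Ces carboxylesterases 14 and 5, of 24 Serpina genes 11 and 13, and of 22 Mup genes 16 and 6. None of these 4 families had a gene in another class. Members of such families are close paralogues, some of which cannot be separated by short reads, so their counts are uncertain.

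Nitrogen and glucose metabolism divided between the liver class and the shared class at full list length. Of 49 genes of the urea cycle and amino acid breakdown, 21 were bound only in liver, 25 in both, none only in MEFs and 3 in neither. Cps1 (56.5), Otc (86.1) and Arg1 (76.2), which carry out the first, second and last steps of the urea cycle, were bound only in liver, whereas Asl, which acts between them, was bound in both at 88.6 in liver and 93.3 in MEFs. Among amino acid genes, Hgd (97.5), Aass (97.2) and Mat1a (97.1) were bound only in liver, and Sardh, Ahcy and Cbs in both. Of 24 genes of glucose production and glycogen, 10 were bound only in liver and 12 in both. G6pc (99.3), Pck1 (93.5), Gys2 (90.2) and Fbp1 (85.7), which are the liver's forms of their enzymes, belonged to the first. Pcx, which feeds pyruvate into the same route, was shared (95.2 in liver, 97.2 in MEFs). Irs2, the 1 gene bound only in MEFs, had a liver summit at 1302 bp. With the top 15000 peaks of each list, nitrogen genes numbered 16 only in liver, 11 in both and 9 only in MEFs, and glucose genes 10, 2 and 6.

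Fatty acid oxidation and cholesterol synthesis, which most cells run, were mostly bound in both at full list length. Of 30 genes of fatty acid oxidation and ketogenesis, 20 were bound in both, 5 only in liver, 5 only in MEFs and none in neither. Acsl1, Acadm and Acaa1a were among the shared genes, each at the 94.95th percentile or above in liver and the 92.8th or above in MEFs. For Acsl1 these were summits at different starts of the gene. The pair of Acaa1 thiolase genes parted, as Acaa1b was bound only in liver (95.3) and Acaa1a in both (98.9 and 92.8). Of 25 genes of cholesterol synthesis and its control, 18 were bound in both, 7 only in MEFs and none only in liver. Scap, the sterol sensor that escorts the SREBP factors, was at the 92.5th percentile in liver and the 73.3rd in MEFs. Lss, Mvk, Msmo1 and Acat2 were bound only in MEFs, each at the 96.6th percentile or above. Both lists turned to the MEF class in the top 15000 peaks, but only cholesterol synthesis did so with the shortened liver list. With the top 15000 of each list, 19 cholesterol genes were bound only in MEFs and 2 in both, and 11 fatty acid genes against 8. With the liver list cut to the length of the MEF list, the cholesterol genes stood at 14 against 11 and the fatty acid genes at 5 against 20.

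Of 26 hepatocyte transcription factors, 9 were bound only in liver, 14 in both, 2 only in MEFs and 1 in neither. The 9 included Prox1 and 6 nuclear receptors (Nr0b2, Nr1h4, Nr1i3, Nr5a2, Nr1i2 and Hnf4a). Hnf4a was at the 53.2nd percentile. The FOXA factors, which open chromatin early in liver development, were all shared: Foxa1 (43.2 in liver, 19.3 in MEFs), Foxa2 (88.6 and 34.2) and Foxa3 (30.1 and 97.9). Cebpa, Gata4, Hhex and Tbx3 were shared as well. Onecut2 and Cebpb were bound only in MEFs, with liver summits 1254 and 1270 bp from a TSS. Over all 48 nuclear receptors 7 were bound only in liver, 23 in both, 10 only in MEFs and 8 in neither. Nr1h2, which encodes LXR beta, led those bound only in MEFs (99.7). With the top 15000 peaks of each list, hepatocyte factors numbered 7 only in liver, 1 in both and 7 only in MEFs, and nuclear receptors 9, 4 and 16.

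Regulators used in many tissues were shared or bound only in MEFs. Of 19 circadian clock genes, 15 were bound in both and 3 only in MEFs, with Arntl at 3.81 in liver and 96.6 in MEFs, Per1 at 34.7 and 99.1, and Clock at 97.5 and 64.4. Of 25 genes of the unfolded protein response, 14 were bound in both and 11 only in MEFs. Of 105 chromatin enzymes and remodellers, 48 were bound in both, 51 only in MEFs and 2, Mbd6 and Kmt2e, only in liver. With the top 15000 peaks of each list, the members bound only in MEFs outnumbered those bound in both in all 3 lists, by 10 to 4, 21 to 1 and 65 to 3.

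Most lists of genes that every cell uses held more members bound only in MEFs than in both. Of 85 cytosolic ribosomal protein genes, 51 were bound only in MEFs, 29 in both and none only in liver. Rpl37, Rpl18 and Rps25 had MEF summits 159 to 167 bp before the TSS, each at the 94.7th percentile or above. Of 37 aminoacyl-tRNA synthetases, which charge tRNAs, 26 were bound only in MEFs and 11 in both, and no member was unbound. The lists of mitochondrial ribosomal proteins (45 of 78 only in MEFs), splicing (35 of 61), RNA helicases (32 of 53), RNA polymerases with TFIID and Mediator (45 of 81), proteasome subunits (21 of 39) and the respiratory chain (39 of 85) had no gene bound only in liver either. Of 94 replication and repair genes, 60 were bound only in MEFs, and of 112 cell cycle genes 66. These shares lie above the 33.1% of all genes, and the share bound in both lay above 22.3% in all of these lists. Mitochondrial protein import (10 of 28 only in MEFs, 16 in both) and V-ATPase with autophagy (20 of 50 and 21) were exceptions, the former with 35.7% only in MEFs, near the share of all genes. Near-identical pseudogene copies make single ribosomal protein genes uncertain.

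Many mesenchymal and developmental genes were also bound only in MEFs. The mesenchymal lists held 184 genes, of which 96 were bound only in MEFs (52.2%), 32 in both and 1 only in liver. This share lay near the 54.3% of general cell genes, so it is not particular to mesenchymal genes. It was 13 of 31 for integrins and 15 of 30 for actin cytoskeleton and focal adhesion genes. Of 35 mesenchymal transcription factors, 25 were bound only in MEFs, 5 in both and none only in liver. Srf, Foxc1, Tbx15 and Runx1 led them (88.1 to 97.5), and Snai2, Yap1, Tead1 and Ebf2 were among the shared. Of 44 extracellular matrix glycoproteins and enzymes, 29 were bound only in MEFs, with Hspg2 (97.1) and the collagen chaperone Serpinh1 (88.1) first. Of 44 collagen genes, 14 were bound only in MEFs and 25 in neither, so this list stood near the background of 33.1%. Of 39 Hox genes 25 were bound only in MEFs and 14 in neither. Hoxa9 and Hoxd13 reached the 93.0th percentile or above, and no Hox gene was bound in liver. Of 148 genes of other developmental factor families 67 were bound only in MEFs, 14 in both and 3 only in liver (Sox7, Sox13 and Sox5). Sox9, a biliary factor, was bound only in MEFs, and a liver summit stood 1236 bp away.

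Neuronal genes differed by list. Of 134 synapse and axon guidance genes, 75 were bound only in MEFs (56%), 11 in both and 2 only in liver, with Ephb3, Efnb2 and Nlgn2 at the 97.3rd percentile or above. Of 215 neurotransmitter receptors and channels, 77 were bound only in MEFs (35.8%), near the 33.1% of all genes, and 131 in neither (60.9% against 40.3%). Map2, a neuronal cytoskeletal gene, was at 89.0 in MEFs. Afp, Des, Hand2, Krt19 and Tubb3 had no promoter summit in either list.

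Several lists of other lineages were mostly unbound. Of 1472 olfactory, vomeronasal and taste receptors 1462 were bound in neither, as were 145 of 156 keratins and epidermal genes and 26 of 30 lymphocyte genes. Of 30 endothelial genes, which liver nuclei of another cell type could bring, 1 was bound only in liver (Tie1), 2 in both, 9 only in MEFs and 18 in neither. Of 24 cholangiocyte genes the counts were 3, 5, 6 and 10, the last near the background at 41.7%. Adipocyte genes were bound more often, with 14 of 30 in both, 6 only in MEFs, 2 only in liver and 8 in neither (26.7%). Transporters stood in all classes. Of 385 solute carriers, 42 were bound only in liver (10.9%), among them the drug carrier Slc47a1 (97.2), 90 in both and 121 only in MEFs.

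Of 189 genes in signalling lists, 82 were bound only in MEFs (43.4% against 33.1% of all genes). Another 13 were bound only in liver (6.88%, interval 4.06 to 11.4, against 4.37%). In the TGF-beta and BMP list of 58 genes, 4 were bound only in liver (6.90% against 4.37% of all genes). Another 16 were bound in both and 26 only in MEFs (44.8%). The 4 included the hepatic activin subunits Inhbc (97.1) and Inhbe (60.5) and the signalling inhibitor Smad6 (51.3), while Smad2, Acvr2b and Smad1 were bound only in MEFs. In the FGF and PDGF list of 32 genes, 13 were bound only in MEFs (40.6%) and 3 only in liver (9.38%). The 3 were Fgf1 (99.8), Fgf21 (45.2), a hepatic hormone of fasting, and Fgfr4 (17.0), the hepatic receptor of intestinal FGF. In the WNT list of 59 genes, 3 were bound only in liver (5.08%) and 27 only in MEFs (45.8%). Fzd4, Axin2 and Fzd5 were among the latter.

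Summit strength differed between a list's exclusive and shared genes, in opposite directions. Genes bound only in liver had a median percentile of 62.6 in the liver list (interquartile range 35.7 to 83.9), against 32.7 for genes bound in both (13.1 to 57.7). In the MEF list, genes bound only in MEFs had a median of 68.4 (42.1 to 87.4) and genes bound in both 82.2 (60.5 to 93.8). Summits in the highest 25% of the liver list made up 36.1% of the genes bound only in liver and 12.4% of those bound in both. Within the liver class, the 208 hepatocyte genes had a median percentile of 78.6 and the other 746 of 56.4. These ranks come from the same lists as the classes and are given as a description.

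**Figure D2:**
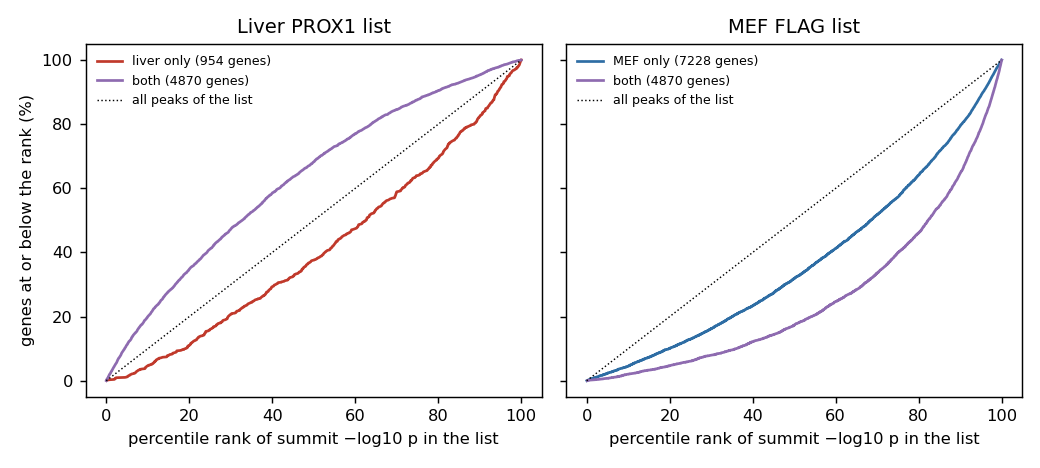
The curves give the share of genes (percent) at or below each percentile rank of summit −log10 p, in the liver list (left) and the MEF list (right), for the exclusive and the shared class, with all peaks of the list as a dotted diagonal. In liver the shared genes run above the diagonal (median 32.7) and the liver genes below it (62.6), whereas in MEFs both run below it (68.4 and 82.2).

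A gene lacking a promoter summit in the other list could still have a summit nearby. Of the 954 genes bound only in liver, 103 (10.8%) had a MEF summit between 1000 and 2000 bp from a TSS and 602 (63.1%) had none within 10000 bp. Of the 7228 genes bound only in MEFs, 562 (7.78%) had a liver summit between 1000 and 2000 bp and 5182 (71.7%) had none within 10000 bp. With the stricter demand of 10000 bp, 156 hepatocyte genes were bound only in liver and 10 only in MEFs. General cell genes then numbered 11 and 471. Outside the promoter, genes bound only in liver had a median of 7 further liver summits within 50 kb of the gene start, genes bound in both 5, genes bound only in MEFs 1 and genes bound in neither 0. The corresponding medians of further MEF summits were 2, 3, 3 and 1.

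**Figure D3:**
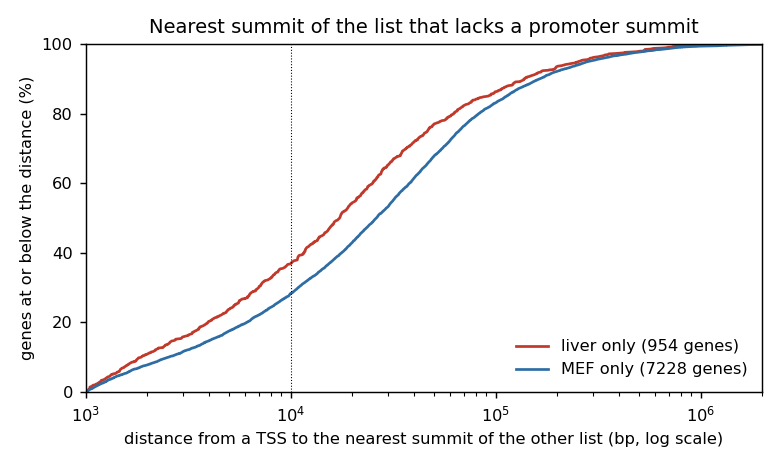
The curves give the share of genes (percent) whose nearest summit of the other list lies at or below each distance from a TSS (bp, log scale), for genes bound only in liver and only in MEFs. At the dotted line at 10000 bp, 63.1% of the liver genes and 71.7% of the MEF genes still have none.

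In the shared class, the liver and MEF peaks mostly coincided. The promoter peaks of both lists overlapped in 4523 of 4870 genes (92.9%), and the nearest liver and MEF summits lay within 100 bp in 1710 (35.1%). The median distance was 156 bp (interquartile range 67 to 391). In 347 genes the peaks did not overlap, and in 133 (2.73%) the summits were over 5000 bp apart, at different annotated TSSs of 1 gene. Auts2 was the farthest, at 910121 bp, and in Ank3 they were 389643 bp apart. Among strong pairs, chosen after the values were seen, the stress-induced chaperone Fkbp5 had its summits 44472 bp apart, at the 93.4th percentile in liver and the 86.1st in MEFs. The fetal growth factor Igf2 had its strongest summits (94.6 and 87.5) 5756 bp apart and its nearest 2187 bp apart. In Bdh1, an enzyme of ketone bodies, the strongest summits (91.5 and 88.5) lay 7596 bp apart and the nearest 6925 bp. Pparg, which has several promoters, held its strongest liver summit (99.0) at another start than its MEF summit (43.5), while a weaker liver summit lay 166 bp from the latter.

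Promoter sequence, which the classification did not use, separated the liver class from the others. It was read at the outermost start of each gene, which need not be the TSS that held the summit. Counted at outermost starts alone, 967, 7050 and 4163 genes were bound only in liver, only in MEFs and in both. For genes bound at another start, the windows could miss the bound promoter. In the 1000 bp around the gene start, median GC content was 50.6% in genes bound only in liver (interquartile range 45.4 to 55.3), 58.9% in genes bound only in MEFs, 59.2% in genes bound in both and 47.2% in genes bound in neither. The ratio of observed to expected CpG, which is high in the CpG islands of broadly used promoters, had medians of 0.259, 0.727, 0.740 and 0.207. It was 0.6 or more in 14.7% of the liver genes (interval 12.6 to 17.1), 72.1% of the MEF genes (71.0 to 73.1), 74.97% of the shared genes (73.7 to 76.2) and 11.7% of the unbound genes. By this measure the liver class resembled the unbound genes, and the shared class the MEF class.

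CpG content was then combined with function, a split added after the values had been seen. Among genes with a ratio under 0.6, 203 of 353 hepatocyte genes (57.5%, interval 52.3 to 62.6) were bound only in liver, against 6.89% of all genes of that kind. Among those at 0.6 or more, 5 of 79 (6.33%) were, against 1.40% of all, and 60 of 79 (75.9%) were bound in both, against 36.4%. General cell genes with a ratio under 0.6 were bound only in liver in 8 of 236 cases (3.39%). They were bound only in MEFs in 108 (45.8%, against 17.1% of all genes of that kind). Most general cell genes had a ratio of 0.6 or more. Of these 1050, 590 (56.2%) were bound only in MEFs, against 51.9% of all genes of that kind. Another 407 (38.8%) were bound in both, against 36.4%, so these shares lay near those of all CpG-rich genes.

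**Figure D4:**
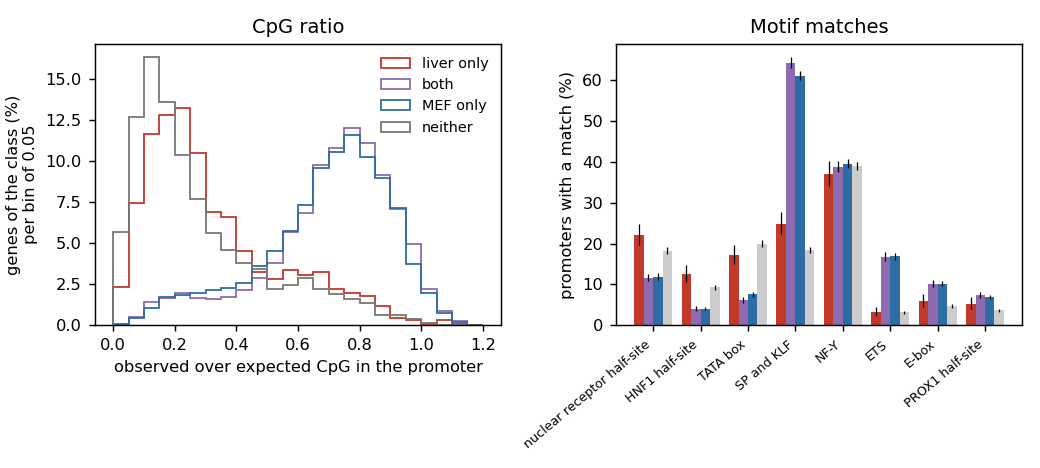
Left, the share of genes of each class (percent) by the ratio of observed to expected CpG in the 1000 bp around the gene start. Right, the share of promoters at the outermost gene start (percent, with 95% Wilson intervals) that hold a match to each motif, in the same colours. The liver and unbound classes peak at low ratios and the other classes near 0.8, and GGGCGG is found in 24.8% of liver promoters against 61.0% and 64.2%.

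Short motifs were counted on both strands in the 300 bases from 250 before to 50 after each gene start, as bare letter matches. These are the outermost starts again, whichever TSS held the summit. The nuclear receptor half-site AGGTCA was in 22.1% of promoters of genes bound only in liver (interval 19.6 to 24.9). It was in 11.9% for genes bound only in MEFs, 11.6% for genes bound in both, 18.3% for neither and 14.9% of all. The HNF1 half-site GTTAAT was in 12.5%, 4.10%, 4.09% and 9.27%, with 6.54% of all. The C/EBP letters TTGCNCAA were in 5.35% of the liver class and 2.75% of all, and the FOXA letters TGTTTAC in 4.72% and 3.07%. The TATA box TATAAA was in 17.2% of the liver class, 7.58% of the MEF class, 6.14% of the shared class and 20.0% of unbound promoters (12.7% of all). Against unbound promoters, which match it in base content more closely, the liver class was higher for the nuclear receptor, HNF1 and C/EBP letters (3.15% unbound for the last) with intervals apart, and for the FOXA letters (3.90% unbound) the intervals overlapped.

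Motifs of CpG-rich promoters were more frequent in the MEF and shared classes than in the liver class. GGGCGG, bound by SP and KLF factors, was in 61.0% and 64.2% (24.8% of the liver class, 43.0% of all), the ETS letters CCGGAAG in 16.9% and 16.8% (3.14%, 10.8%) and the E-box CACGTG in 10.2% and 10.2% (5.87%, 7.75%). The NRF1 letters GCATGCGC were in 4.45% and 6.32% (1.26%, 3.69%) and the YY1 letters AAGATGGC in 4.59% and 3.84% (1.05%, 2.90%). Between the MEF and shared classes, the intervals were apart for GGGCGG (59.9 to 62.1 against 62.8 to 65.5), GCATGCGC (4.00 to 4.96 against 5.67 to 7.04) and TATAAA (6.99 to 8.21 against 5.50 to 6.85). The NF-Y letters CCAAT were in 37.0% to 39.5% of every class. AP-1 letters TGANTCA were in 9.33% of the liver class, 4.45% of the MEF class, 9.74% of unbound promoters and 6.90% of all, TEAD letters GGAATG in 16.8%, 11.8%, 15.2% and 13.47%, and CUX and ONECUT letters ATCGAT in 1.15%, 0.816%, 0.875% and 0.869%. The PROX1 half-site AAGACG was in 5.24% of the liver class (interval 4.00 to 6.84), 6.88% of the MEF class, 7.45% of the shared class, 3.64% of unbound promoters and 5.63% of all. None of these motifs contains another.

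At the summits themselves (101 bases) the shared class let the lists be compared on the same genes, though not at the same sites. Each window was centred on the strongest promoter summit of its list, and the 2 could lie at different starts. The liver summits lay a median of 201.5 bp from a TSS and the MEF summits 97 bp. AGGTCA was in 9.08% of the liver summits (interval 8.30 to 9.92) and 3.82% of the MEF summits (3.32 to 4.40) of the 4870 shared genes. GTTAAT was in 2.32% and 0.678%, GGGCGG in 24.8% and 45.0%, and AAGACG in 3.57% and 1.99%. At the genes bound only in liver, AGGTCA was in 13.52% of summits and GTTAAT in 4.61%, and at the genes bound only in MEFs in 3.47% and 0.567%. Median GC content of these 101 bases was 57.4% at liver and 65.3% at MEF summits of the shared genes. Base composition and position thus differed along with the motifs, and their part was not tested.

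The classes also differed in the human Hep3B list, matched by identical gene symbol for 15754 genes. The human gene had a Hep3B promoter summit for 146 of 692 genes bound only in liver (21.1%, interval 18.2 to 24.3), 3742 of 6423 bound only in MEFs (58.3%, 57.0 to 59.5), 3453 of 4438 bound in both (77.8%, 76.6 to 79.0) and 356 of 4201 bound in neither (8.47%), with 48.9% over all. With the area floor of 500 in both lists the share of the liver class was 32.5%. Of the hepatocyte genes bound only in liver, 22 of 138 (15.9%, interval 10.8 to 22.96) had one, against 79 of 115 of those bound in both (68.7%). Nr0b2, Cps1 and PROX1 itself were among those bound in Hep3B, and Alb, Ttr, Apoa1, Cyp2e1 and Hnf4a were not. Hep3B is of liver origin and shares the FLAG antibody, the overexpression and the duration of 2 days with the MEFs, and differs from both mouse materials in species.

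**Figure D5:**
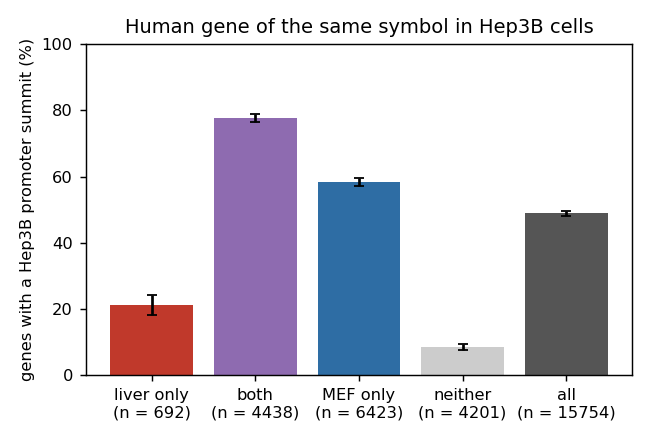
Bars give the share of mouse genes (percent, with 95% Wilson intervals) whose human gene of the same symbol had a promoter summit in Hep3B, by class and for all matched genes. The share is 21.1% for genes bound only in liver and 77.8% for genes bound in both.

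A neighbouring gene of the same class was found for 72.1% of genes bound only in MEFs, 61.6% of those bound in both, 32.6% of those bound only in liver and 69.6% of all genes, shares that depend on the size of each class and were not compared. A single peak served more than 1 gene for 1273 of the 7228 MEF genes (17.6%) and 56 of the 954 liver genes (5.87%), so neighbouring promoters are not independent observations. The X chromosome held 4.40% of the liver class, 2.05% of the MEF class, 1.15% of the shared class and 4.34% of all genes.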

How the data were processed

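Groups came from the sample labels: 5 liver samples with an antibody to PROX1 and 5 with IgG, 3 FLAG and 3 IgG samples of MEFs overexpressing FLAG-Prox1, and the same numbers of Hep3B. According to their methods, the authors trimmed reads with Trim Galore 0.6.6, aligned them to mm10 or hg38 with Bowtie2 2.4.2 (nf-core/cutandrun), and pooled the replicates of a group into consensus peaks with Genrich 0.6.1 at a lenient q limit, leaving out duplicates and poorly placed reads. The authors describe the sites as called relative to IgG, while the Genrich command in their methods lists no control file.

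The deposited lists hold 50159 liver, 40531 MEF and 14369 Hep3B peaks. The deposited score, capped by the authors' caller, was not used. The deposited signal of a peak is its area under the curve of significance. The deposited −log10 p and −log10 q belong to the summit, whose offset from the peak start is given too. No value was normalized between lists by the authors. Summits were compared with TSSs of protein-coding transcripts (GENCODE M21 on 21 mouse chromosomes, GENCODE 44 for human), and genes were counted by Ensembl ID. Ranks used −log10 p within 1 list. Sequence came from GRCm38. Python 3.11.15, pandas 2.3.3, numpy 2.4.6, pysam 0.24.0, samtools 1.23.1 and matplotlib 3.10.9 were used, and the assignment was tested on simulated data.

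The classes, the 59 lists and the 15 motifs were chosen with earlier results of these data known, so no test was made and no list is independent support. Named genes were the 8 with the highest summits per class, up to 4 members per list and class, genes the study names, genes at the 1000 bp limit, and the widest or farthest peaks. Other genes named here were chosen after their values were seen, as were the families counted by name and the split by CpG ratio. Printed sequences passed over the Mup family and chromosomes kept from printing. Values of some genes that the naming rule selects are not reported here.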

Additional observations from a re-analysis of the deposited data

How the results depend on the processing

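No value has an error between replicates, since each list pools the samples of its group, and leaving out a replicate was not possible. No paired analysis was possible because the lists carry no replicate numbers. The 12 alternatives changed the window, the peaks kept, the TSSs or the rule for a class. Of 36 class counts under them, 32 stayed within 1.5 times the reported one. With an area of at least 500 in both lists 1507 genes were bound only in liver, and with no summit of the other list within 10000 bp 602 were. Genes bound in both numbered 495 with the top 15000 peaks of each list and 3235 with the liver list cut to the length of the MEF list. The number of hepatocyte genes bound only in liver ranged from 146 with the top 15000 peaks to 239 with the raised area, of 432. The difference in members bound only in liver minus only in MEFs was taken for 59 lists, and 6 of 708 values changed sign, all in lists where the reported difference was 5 members or fewer. With the raised area these were nuclear receptors (5), cholangiocyte genes (1), cytokines with their receptors (6) and ABC transporters (4). Nuclear receptors (1) also turned at a q below 0.01, and adipocyte genes (1) at 2000 bp. Another 99 values moved by over 1.5 times with their sign kept, or moved to or from a difference of 0. The Hep3B share of the liver class ranged from 15.1% with the 10000 bp rule to 32.5% with the raised area, and in each alternative lay below that of both other classes. The cause of these shifts was not tested. Depth per sample is unknown, so a promoter without a summit cannot be told from one below the limit of detection.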
